A study of Mus musculus with 10 samples.

Results

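The subject is how the liver's response to acetaminophen changed between 24 and 48 h after the injection. For every gene it is the log2 ratio of treated over control RNA on the 2 arrays titled 48 h minus that on the 2 arrays titled 24 h, so 4 of the 10 arrays of the series enter the difference. The members were chosen by these titles alone, and all 23998 genes that passed the filter on dim probes were tested. The 48 h treated livers came from mice 1 and 3 and the 48 h control livers from mice 2 and 1. The 24 h treated livers came from mice 1 and 3 and the 24 h control livers from mice 2 and 3. All were female C57BL/6 mice aged 8 weeks that had been fasted for 24 h. Treated mice then received acetaminophen once into the peritoneum at 350 mg/kg in phosphate buffered saline, and control mice received the saline. A treated liver was labelled with Cy5 and a control liver with Cy3 on each array, and the dyes were never exchanged. A dye effect that is constant cancels in the difference between the time points. It does not cancel in the ratio at a single time, so a call above or below control at 24 or 48 h can hold it. Within a time and treatment the livers carry different mouse numbers. The numbers recur between times and treatments, so a number alone does not identify an animal.

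Acetaminophen is oxidised in the hepatocytes around the central vein to a reactive metabolite that glutathione normally captures. After an overdose these cells die, and the liver then passes from injury into clearance of dead cells by macrophages, division of surviving hepatocytes and rebuilding of metabolic function. Several of the groups below are parts of that sequence, among them acute phase proteins made by hepatocytes, enzymes of glucose production, the machinery of protein synthesis and markers of recruited macrophages.

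Because every value is a ratio, the difference between the time points can come from treated livers, from control livers or from both. The treated (Cy5) and control (Cy3) channels were therefore also followed alone, after the arrays had been brought to a common intensity distribution. The change in the treated channel minus the change in the control channel equals the change in the ratio. A change is called carried by treated livers where the treated channel made up at least 66.7% of it, by control livers where it made up at most 33.3%, and by both in between.

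Over the 4 arrays, between 66.7% and 84.1% of spots were well above background in the control channel and between 52% and 76.6% in the treated channel, and no spot was saturated. The dimmest was 24 h replicate 1, which also had the smallest ratios, with a median absolute log2 ratio of 0.038, against 0.147 and 0.276 on the 48 h arrays and 0.165 on 24 h replicate 3. All 8 hepatocyte markers examined were well above background in both channels. The 48 h and 24 h arrays of replicate 3 shared a slide and a scan day. Those of replicate 1 shared a scan day but lay on different slides. Over genes, which are not independent replicates, the change on the first scan day correlated with that on the second at 0.73. Summed levels of the 2 erythroid markers that were tested reached 82500 intensity units in one 24 h treated liver and 11900 in the other. In 48 h treated livers they were 6550 to 8740. One 24 h treated liver thus stood apart in these markers, whose part in the changes was not tested. Neutrophil markers summed to 7260 and 8220 units in 48 h treated livers and lay between 8190 and 17900 units in 24 h treated livers.

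Between 24 and 48 h the ratio rose for 1872 genes and fell for 638, 877 and 316 of them by at least 2-fold (limma, Benjamini-Hochberg adjusted p under 0.05). That is 7.8% of all genes tested for rises and 2.66% for falls. No called gene with a value on all 4 arrays had 48 h arrays that overlapped its 24 h arrays, and 1866 rises and 635 falls had the same sign on both scan days. The calls were made from these same values, so neither count is separate support. The shares over all genes were not counted. At 48 h itself 4302 genes (17.9%) were above and 3236 (13.5%) below the control, and at 24 h 909 (3.79%) were above and 1701 (7.09%) below. Any constant dye effect remains in these single-time calls and in those given for the lists below. Of the 1872 rises, 1364 were above control at 48 h and had no call at 24 h, 206 had no call at 48 h and were below control at 24 h, 130 were above control at 48 h and below it at 24 h, 74 were above control at both times, 59 were below control at both times, and 39 had no call at either time. Of the 638 falls, 430 were below control at 48 h and had no call at 24 h, 74 were below control at both times, 62 had no call at 48 h and were above control at 24 h, 27 had no call at either time, 23 were above control at both times, and 22 were below control at 48 h and above it at 24 h.

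These counts rest on 2 arrays per time point. Without 48 h replicate 3 the total of 2510 was 937, without 24 h replicate 3 it was 945 and without 24 h replicate 1 it was 1526. Of the 141 named genes whose change was called, 49 were also called without each of the 4 arrays in turn, and a named gene is among these unless its loss is given below. Fitted on the 4 arrays alone the total was 244, and with the spread of ratios made equal between arrays it was 3. With the slide as a block, which left 2 residual degrees of freedom, 0 genes passed (lowest adjusted p = 0.061, 5109 genes at an unadjusted p under 0.05), while all 2510 changes kept their direction. Before loess, the 4800 brightest genes had a median log2 ratio of 0.35 and 0.77 on the 48 h arrays and of -1.26 and -0.10 on the 24 h arrays, the lowest being 24 h replicate 1. With median centring in place of loess, the median change of all genes was 0.21 and that of the 4800 brightest genes 1.34, and 520 genes rose while 2 fell, 99.6% against 74.6% rises among the calls. Of the 148 named genes with a value under it, which include some not called to begin with, 84 kept their sign but lost their call. Another 16 did not keep their sign, Jun at 0 among them. Where it turned the sign of a list's median, both values are given.

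**Figure D1:**
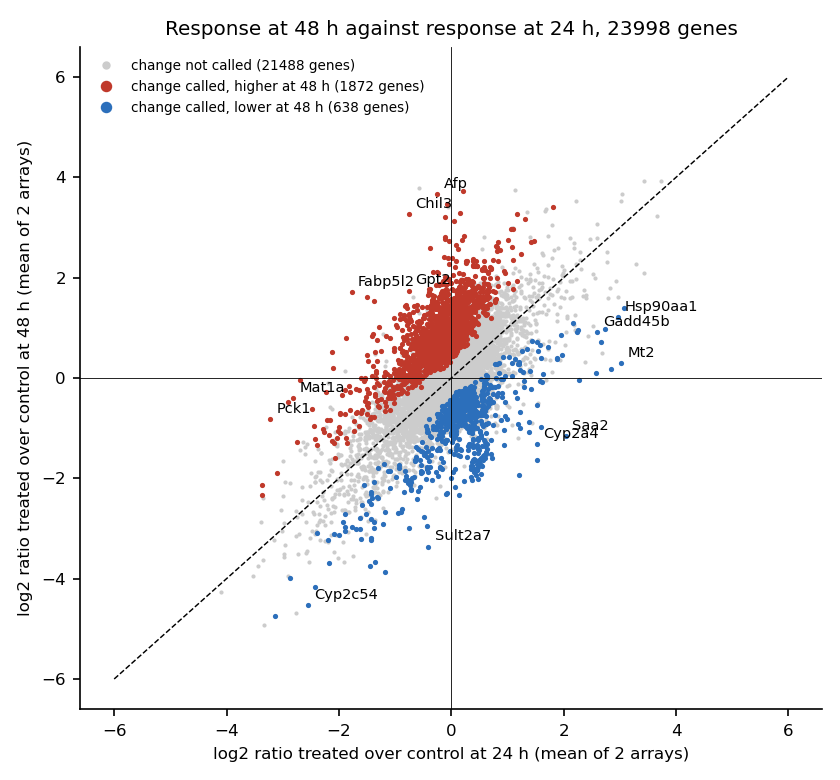
Log2 ratio of treated over control at 48 h (vertical axis) against that at 24 h (horizontal axis), each the mean of 2 arrays, for 23998 genes. Genes whose change was called lie above the dashed line of equality in red (1872) or below it in blue (638), and a column of red points near 0 at 24 h holds most of the rises.

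The treated channel alone had 477 genes higher at 48 h (1.99%) and 195 lower (0.813%), and the control channel alone had 114 higher (0.475%) and 203 lower (0.846%). Of the 1872 rises of the ratio, 649 (34.7%) were carried by treated livers, 883 (47.2%) by both and 340 (18.2%) by control livers. Of the 638 falls, 208 (32.6%) were carried by treated livers, 278 (43.6%) by both and 152 (23.8%) by control livers. Of the called changes, 434 were also called in the treated channel and 124 in the control channel. The 2 channels of a gene moved together across genes on the first scan day, at a correlation of 0.47, when the arrays lay on different slides, and slightly apart on the second, at -0.18, when they shared a slide. In the same tests 72 genes moved the same way in both channels, and 6 of these were called in the ratio.

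**Figure D2:**
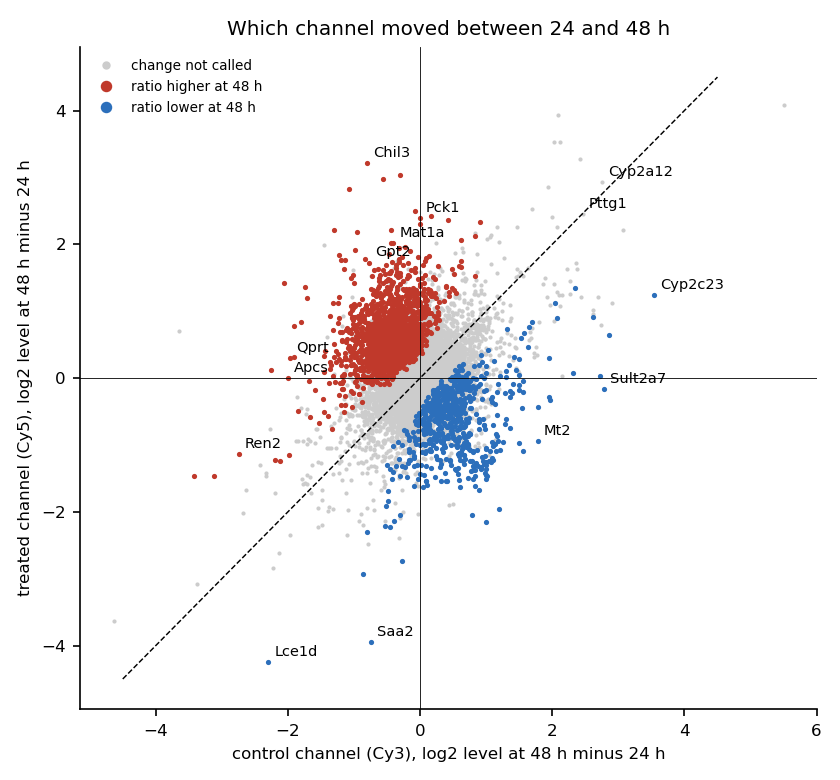
Change of the log2 level from 24 to 48 h in the treated channel (vertical axis) against that in the control channel (horizontal axis) for 23998 genes. Points near the dashed line have a ratio change near 0, as Cyp2a12 and Pttg1 do, while Pck1 lies on the vertical axis, moved by treated livers, and Apcs on the horizontal axis, moved by control livers.

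The 10 largest rises of genes with a symbol were led by Chil3, a chitinase-like protein secreted by macrophages and neutrophils (probe at chromosome 3, 105950485 to 105950544, coordinates of the array design, mm9). Its log2 ratio was 3.51 and 3.03 on the 48 h arrays and 0.17 and -1.68 on the 24 h arrays, a change of 4.03 ± 0.50 (standard error of limma's fit, here and below, n = 2 arrays per time, adjusted p = 0.00528). Both 48 h arrays lay above both 24 h arrays, and treated livers carried the change, at 3.22 in their channel against -0.81 in controls. One 24 h control liver had a level of 9.96 on the log2 scale and the other 7.63.

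Afp, the fetal serum protein that adult hepatocytes make again during regeneration (chromosome 5, 90937781 to 90937840), had ratios of 3.39 and 3.93 on the 48 h arrays and 0.33 and -0.82 on the 24 h arrays. Its change was 3.91 ± 0.35 (adjusted p = 0.0028), of which treated livers made up 2.83 and controls -1.07. The 24 h control livers were at 7.49 in replicate 1 and 9.13 in replicate 3 on the log2 scale. Afp was well above background in 1 of the 2 control livers at 24 h. Uts2, the vasoactive peptide urotensin 2, changed by 3.54 ± 0.39, with ratios of 2.95 and 3.97 on the 48 h arrays and 0.46 and -0.62 on the 24 h arrays, and was carried by treated livers. Ifi27l2b, a member of an interferon-inducible gene family, changed by 3.33 ± 0.30 and was carried by treated livers, although a dimmer probe of the gene changed by 0.25. Uts2 and Ifi27l2b too were well above background in 1 of the 2 control livers at 24 h.

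Fabp5, a fatty acid binding protein of macrophages and epithelia, lay above control at 48 h and below it at 24 h, with ratios of 1.53 and 1.69 on the 48 h arrays and -1.04 and -1.96 on the 24 h arrays and a change of 3.11 ± 0.44 (adjusted p = 0.00739). Fabp5l2 and Gm13315 changed by 3.48 ± 0.45 and 2.78 ± 0.37. Fabp5l2 is a near copy of Fabp5, and their probes may bind the same RNA, so the 2 values are not separate evidence. Apoa4, an apolipoprotein of fat transport, changed by 3.51 ± 0.65, the glucocorticoid-induced kinase gene Sgk1 by 3.14 ± 0.52 and Esm1, a proteoglycan of activated endothelium, by 2.97 ± 0.51. Esm1 was well above background in 1 of the 2 control livers at 24 h. Treated livers carried Sgk1 and both channels Fabp5, Fabp5l2, Gm13315, Apoa4 and Esm1. Apoa4, Sgk1 and Esm1 lost their call without 48 h replicate 3 or 24 h replicate 3.

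**Figure D3:**
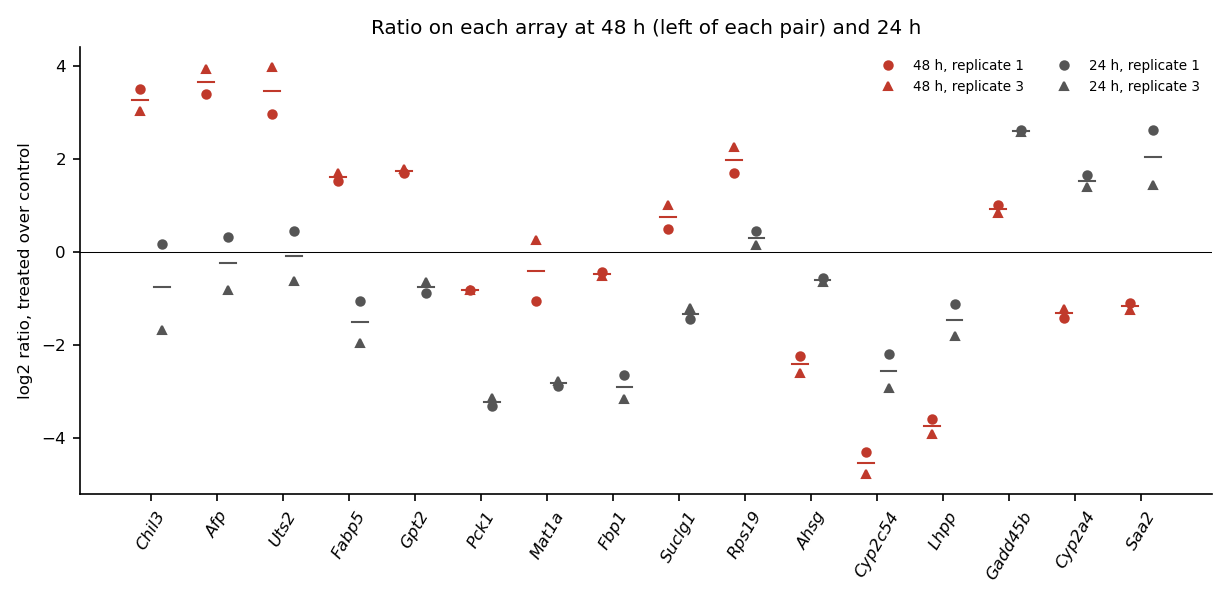
Log2 ratio of treated over control on each array for 16 genes, with 48 h in red left of 24 h in grey, circles for replicate 1, triangles for replicate 3 and bars for the mean. In each gene both 48 h arrays lie on one side of both 24 h arrays, and Fabp5, Gpt2, Suclg1, Cyp2a4 and Saa2 lie on opposite sides of 0 at the 2 times.

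Among the largest falls were the metallothioneins Mt1 and Mt2, small proteins that bind zinc and copper and are induced by metals, glucocorticoids and oxidants. Both lie side by side on chromosome 8 and are alike in sequence, so their probes may share RNA. The metal response element, the short motif bound by the metal-sensing factor MTF1, is shown in capitals (TGCACNC or TGCGCNC, either strand) in the 150 bases before each gene's start, to let a reader see what the promoters of this pair hold (RefSeq sequence, build GRCm38.p6, plus strand, chr8:94178939-94179088 for Mt1 and chr8:94172468-94172617 for Mt2). In the 250 bases before the start, the motif occurred in 21.4% of 32851 mouse promoters and at least 2 times in 5.17%, and it occurred 1 time in Mt1 and 3 times in Mt2. Sites outside these 250 bases, any after the RefSeq start included, were not counted, so the counts need not cover the whole promoter.
Mt1: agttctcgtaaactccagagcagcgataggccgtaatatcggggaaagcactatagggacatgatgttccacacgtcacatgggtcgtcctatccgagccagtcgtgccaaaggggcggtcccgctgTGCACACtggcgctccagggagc
Mt2: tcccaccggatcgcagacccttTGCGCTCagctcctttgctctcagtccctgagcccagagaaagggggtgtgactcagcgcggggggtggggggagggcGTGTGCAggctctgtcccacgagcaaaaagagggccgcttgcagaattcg

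Mt2 had log2 ratios of 1.08 and -0.48 on the 48 h arrays and 3.83 and 2.23 on the 24 h arrays, a change of -2.72 ± 0.59 (adjusted p = 0.0271). Its level in treated livers was 15.26 and 14.94 at 48 h and 16.12 and 15.96 at 24 h, and in control livers 14.17 and 15.42 at 48 h and 12.30 and 13.73 at 24 h. The treated livers were lower at 48 h and the control livers higher, so both channels carried the fall, at -0.95 and 1.78, of which the treated one was called (adjusted p = 0.0185). Mt1 did the same, with a change of -2.66 ± 0.59, -1.09 in treated and 1.56 in control livers. Mt1 and Mt2 lost their call without 48 h replicate 3 or 24 h replicate 1. The changes were -6.51 for Mt2 and -6.33 for Mt1 with scaling between arrays, and under median centring -1.07 for Mt2 and -0.90 for Mt1, neither then called (limma, adjusted p = 0.29 and 0.248).

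The heat shock genes, mainly of cytosolic chaperones that hold and refold damaged proteins, fell in part: of 24 tested, 6 fell and 0 rose (25% against 2.66% of all genes). Their median change of -0.45 was 0.56 under median centring. The list also holds the mitochondrial chaperonin genes Hspd1, which is among the falls, and Hspe1, which was not called, and the transcription factor gene Hsf2, not called. The median ratio of the list was 0.13 at 48 h and 0.79 at 24 h. Hsp90aa1, the stress-inducible HSP90, had ratios of 1.53 and 0.91 on the 48 h arrays and 3.53 and 2.40 on the 24 h arrays and changed by -1.75 ± 0.37. Hspa8, the constitutive HSC70, changed by -2.32 ± 0.46, and its other probes by as little as -0.91. Hspb1, the small heat shock protein HSP27, changed by -1.499 ± 0.24, and its level in treated livers was 11.02 and 11.11 at 48 h and 13.44 and 13.29 at 24 h. Treated livers carried 5 of the 6 falls, and 9 of the 24 genes fell when the treated channel was tested by itself. Without 48 h replicate 3 the list had 0 falls, and without 24 h replicate 1 it had 3. Treated livers carried Hsp90aa1 and Hspb1 and both channels Hspa8. Hsp90aa1 and Hspa8 lost their call without 48 h replicate 3 or 24 h replicate 1, and Hspb1 without 48 h replicate 3.

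The heat shock element, the site of heat shock factor, was sought as GAANNTTC or TTCNNGAA in the 250 bases before the start. It occurred in 12.8% of 32851 mouse promoters, which do not cover every chromosome. It also occurred in 8 of the 20 heat shock genes with a promoter in the reference, 3 of the 4 such genes that fell among them. The other falls, Hspa8 and Hsp90aa1, had no promoter there and could not be counted. A heat shock gene was counted where any of its promoters held the motif, while the 12.8% counts each promoter alone, so the shares are not alike in measure. The promoters of Hspd1 and Hspe1 overlap, so sites they share were counted for both genes. Hspb1 held 2, shown because the gene had the largest fall of the list in treated livers (RefSeq, GRCm38.p6, plus strand, chr5:135887769-135887918).
Hspb1: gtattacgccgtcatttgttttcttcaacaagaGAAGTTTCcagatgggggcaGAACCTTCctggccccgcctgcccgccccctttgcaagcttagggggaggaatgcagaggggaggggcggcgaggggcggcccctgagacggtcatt

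Acute phase genes, which hepatocytes switch on during inflammation, also fell in part: 9 of 38 fell and 1 rose (23.7% against 2.66% of all genes for falls), Mt1 and Mt2 among the falls, with a median change of -0.26 that was 0.65 under median centring. Treated livers carried 7 of the 9 falls. Saa2, a serum amyloid A protein that rises steeply in inflammation (chromosome 7, 54009622 to 54009681), had ratios of -1.09 and -1.24 on the 48 h arrays and 2.62 and 1.45 on the 24 h arrays and changed by -3.20 ± 0.44 (adjusted p = 0.00686). In treated livers its level was 8.85 and 8.82 at 48 h and 12.39 and 13.18 at 24 h, and in control livers 9.94 and 10.06 at 48 h and 9.77 and 11.73 at 24 h. Both treated livers at 48 h lay more than 3 log2 units below both treated livers at 24 h, a change of -3.95 in that channel (adjusted p = 0.00127). Its neighbour Saa1 changed by -2.06 ± 0.24 and Orm3, an orosomucoid, by -2.22 ± 0.35. Saa1 and Saa2 are closely alike in sequence, and each was below control at 48 h and above it at 24 h. Treated livers carried Saa1, Saa2 and Orm3. Orm3 lost its call without 24 h replicate 3. The exception was Apcs, the pentraxin serum amyloid P, whose ratio rose by 2.002 ± 0.12 while its treated level did not move (9.41 and 9.25 at 48 h and 9.41 and 9.25 at 24 h). Its control level was 8.62 and 8.36 at 48 h and 10.60 and 10.39 at 24 h, so control livers made up the whole change (control channel -2.003, adjusted p = 0.0112). Without single arrays the list had 4 to 6 falls, the fewest without 24 h replicate 1 and without 48 h replicate 3.

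Secreted plasma proteins, the main export of hepatocytes, fell in 9 of 59 cases and rose in 2 (15.3% and 3.39%), and their median change of -0.53 was 0.83 under median centring and 0.72 with scaling between arrays. Their median ratio was -1.34 at 48 h and -0.92 at 24 h. Ahsg and Fetub, the fetuins, changed by -1.81 ± 0.21 and -1.39 ± 0.13, and Gc, the vitamin D binding protein, by -1.26 ± 0.12. All were positive under median centring, at 0.03 for Ahsg, 0.13 for Fetub and 0.53 for Gc. Ttr, transthyretin, and Pros1, protein S, rose by 1.13 ± 0.27 and 0.88 ± 0.19. Both channels carried Ahsg, Fetub, Gc and Pros1 and treated livers Ttr. The count of falls in the list was 16 without 48 h replicate 1 and 6 without 48 h replicate 3 or 24 h replicate 1. Ttr and Pros1 lost their call without 48 h replicate 1, 48 h replicate 3 or 24 h replicate 3.

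Another secreted protein was among the 10 largest falls. Serpina7, thyroxine-binding globulin, changed by -2.46 ± 0.51, with ratios of 0.40 and -0.19 on the 48 h arrays and 1.98 and 3.16 on the 24 h arrays, and treated livers carried it (-2.73 in their channel). The 10 also held probes that the array files name Pigr and Dcc, at -2.47 ± 0.36 and -2.36 ± 0.38. The design places both on another chromosome than RefSeq does the gene, and 100% and 98.3% of their bases are A or G, so these values are not credited to Pigr or Dcc. Over all genes with a place in both, 63 of 17577 had a probe on another chromosome than the gene, 23 of them called. Serpina7 lost its call without 48 h replicate 3 or 24 h replicate 3, and the probe named Dcc without 48 h replicate 3.

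Enzymes of glucose and amino acid metabolism rose in part. Of 38 genes of gluconeogenesis and glycolysis 13 rose and 0 fell (34.2% against 7.8% of all genes), and the median ratio was -0.12 at 48 h and -0.57 at 24 h. Of the 38, 13 were called above control at 48 h and 16 below, against 3 and 17 at 24 h, and the ratio of 14 moved toward 0, that of 16 away from it and that of 8 across it. Of 46 genes of amino acid catabolism 11 rose and 0 fell (23.9%), at median ratios of -1.33 at 48 h and -1.89 at 24 h, and 37 were called below control at 48 h, against 43 at 24 h. Of 32 genes that mark periportal hepatocytes 9 rose and 2 fell (28.1% and 6.25%), at median ratios of -1.14 at 48 h and -2.11 at 24 h. The medians of the change, 0.46, 0.40 and 0.63, were positive under every alternative tried.

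Pck1, the enzyme that commits carbon to glucose production (chromosome 2, 172984307 to 172984366), had ratios of -0.81 and -0.82 on the 48 h arrays and -3.31 and -3.13 on the 24 h arrays and changed by 2.40 ± 0.22 (adjusted p = 0.0028). Its level in treated livers was 14.04 and 14.55 at 48 h and 11.86 and 11.94 at 24 h, and in control livers 14.85 and 15.38 at 48 h and 15.17 and 15.07 at 24 h. Treated livers therefore carried the whole change (2.39, adjusted p = 0.00127, against -0.01 in control livers). Fbp1, the next regulated enzyme, changed by 2.42 ± 0.18, of which 1.42 came from treated and -1.005 from control livers, each called. G6pc, which releases free glucose, changed by 2.30 ± 0.38, with 0.93 in treated and -1.37 in control livers, the control change called. The probe named Pgk1 after a glycolytic gene changed by 2.45 ± 0.31 and is 1 of the 13 rises, but the design places it on chromosome 3 and RefSeq the gene on chromosome X, so the value is uncertain for that gene.

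Mat1a, which makes the methyl donor S-adenosylmethionine in adult liver, changed by 2.42 ± 0.37, with ratios of -1.05 and 0.25 on the 48 h arrays and -2.88 and -2.76 on the 24 h arrays, and treated livers carried it (2.01). The transaminase gene Gpt2 had ratios of 1.70 and 1.78 on the 48 h arrays and -0.88 and -0.64 on the 24 h arrays, both 48 h arrays above 0 and both 24 h arrays below, and changed by 2.50 ± 0.12 (adjusted p = 0.000715), carried by treated livers. Got1, the cytosolic aspartate transaminase, changed by 2.65 ± 0.48, Csad, an enzyme of taurine synthesis, by 2.68 ± 0.32, and Qprt, which makes nicotinate mononucleotide, by 2.27 ± 0.17. In these 3 genes control livers carried the change, at -1.81, -1.90 and -1.97 in their channel, each called. Qprt levels were 10.68 and 10.38 at 48 h and 10.52 and 9.94 at 24 h in treated and 9.95 and 9.35 at 48 h and 11.98 and 11.25 at 24 h in control livers, so the treated livers barely differed between the times. The periportal genes that fell were Cyp2f2 at -1.40 ± 0.18 and the urea cycle gene Otc at -1.12 ± 0.26, with values of 0.16 and 0.07 under median centring and of 1.39 and 2.80 with scaling between arrays. Treated livers carried Cyp2f2 and both channels Otc. Got1 lost its call without 48 h replicate 3 or 24 h replicate 3, and Otc without 48 h replicate 3, 24 h replicate 1 or 24 h replicate 3. The amino acid list had 5 rises without 48 h replicate 3 or 24 h replicate 3 and 7 without 48 h replicate 1. The periportal list had 4 without 48 h replicate 3 and 5 without 24 h replicate 3.

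Of 58 subunits of oxidative phosphorylation, the complexes that turn nutrients into ATP, 24 rose and 0 fell (41.4% against 7.8%), with a median change of 0.45 that was positive under every alternative tried. Their median ratio was -0.48 at 48 h and -0.92 at 24 h, and 33 were still below control at 48 h, against 49 at 24 h. Sdhd of complex II had ratios of 0.28 and 1.31 on the 48 h arrays and -1.23 and -0.94 on the 24 h arrays and changed by 1.88 ± 0.34, and Cycs, cytochrome c, by 1.72 ± 0.35, its other probes by as little as 0.16. Both channels carried 15 of the 24 rises, control livers 6 and treated livers 3, and 1 of the 58 passed when the treated channel was tested by itself. Of 20 citric acid cycle genes 5 rose and 0 fell, all carried by both, among them Suclg1 at 2.07 ± 0.23, Sucla2 at 1.56 ± 0.15 and Dld at 1.38 ± 0.30. Both channels carried Sdhd and Cycs. The count of oxidative phosphorylation was 9 without 48 h replicate 3, 12 without 24 h replicate 3 and 8 without 24 h replicate 1. That of the citric acid cycle was 2 without 48 h replicate 3, 3 without either 24 h array and 8 without 48 h replicate 1. Sdhd and Dld lost their call without 48 h replicate 3, 24 h replicate 1 or 24 h replicate 3, and Cycs without 24 h replicate 1 or 24 h replicate 3.

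Of 48 genes of fatty acid oxidation 6 rose and 2 fell (12.5% and 4.17%), with a median change of 0.20. Etfdh, which passes electrons from fat oxidation to the respiratory chain, changed by 1.99 ± 0.35, the fatty acid transporter gene Cd36 by 1.94 ± 0.31 and Ech1 by 1.48 ± 0.23. Creb3l3, a fasting-induced factor, changed by -0.92 ± 0.19 with ratios of -0.17 and 0.24 on the 48 h arrays and 0.92 and 0.999 on the 24 h arrays. Under median centring it stood at 0.61. Of 27 genes of fatty acid synthesis 6 rose and 0 fell (22.2%), with a median change of 0.50, including Acly at 1.65 ± 0.34, carried by control livers (-1.69, not called), Slc25a1, the citrate carrier, at 1.61 ± 0.15, and Rdh11 at 1.51 ± 0.35. A second Acly probe changed by 0.16. Of 27 cholesterol synthesis genes 2 rose and 0 fell (7.41%, close to the 7.8% of all genes), among them Pmvk at 1.61 ± 0.31, although the list median was 0.79. That median was 0.12 on the first scan day and 1.5 on the second. Without 48 h replicate 3 or 24 h replicate 3 the fatty acid synthesis list had 1 rise and the cholesterol list 0, and the oxidation list had 2 without 48 h replicate 3 and 3 without 24 h replicate 3. Treated livers carried Cd36, Etfdh and Rdh11 and both channels Ech1, Creb3l3, Slc25a1 and Pmvk. Cd36 lost its call without 48 h replicate 3, Etfdh without 48 h replicate 3 or 24 h replicate 1, Creb3l3 without 48 h replicate 1, 24 h replicate 1 or 24 h replicate 3, Pmvk without 48 h replicate 3 or 24 h replicate 3, Rdh11 without 48 h replicate 1, 48 h replicate 3 or 24 h replicate 3, and Acly without each of the 4 arrays in turn.

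**Figure D4:**
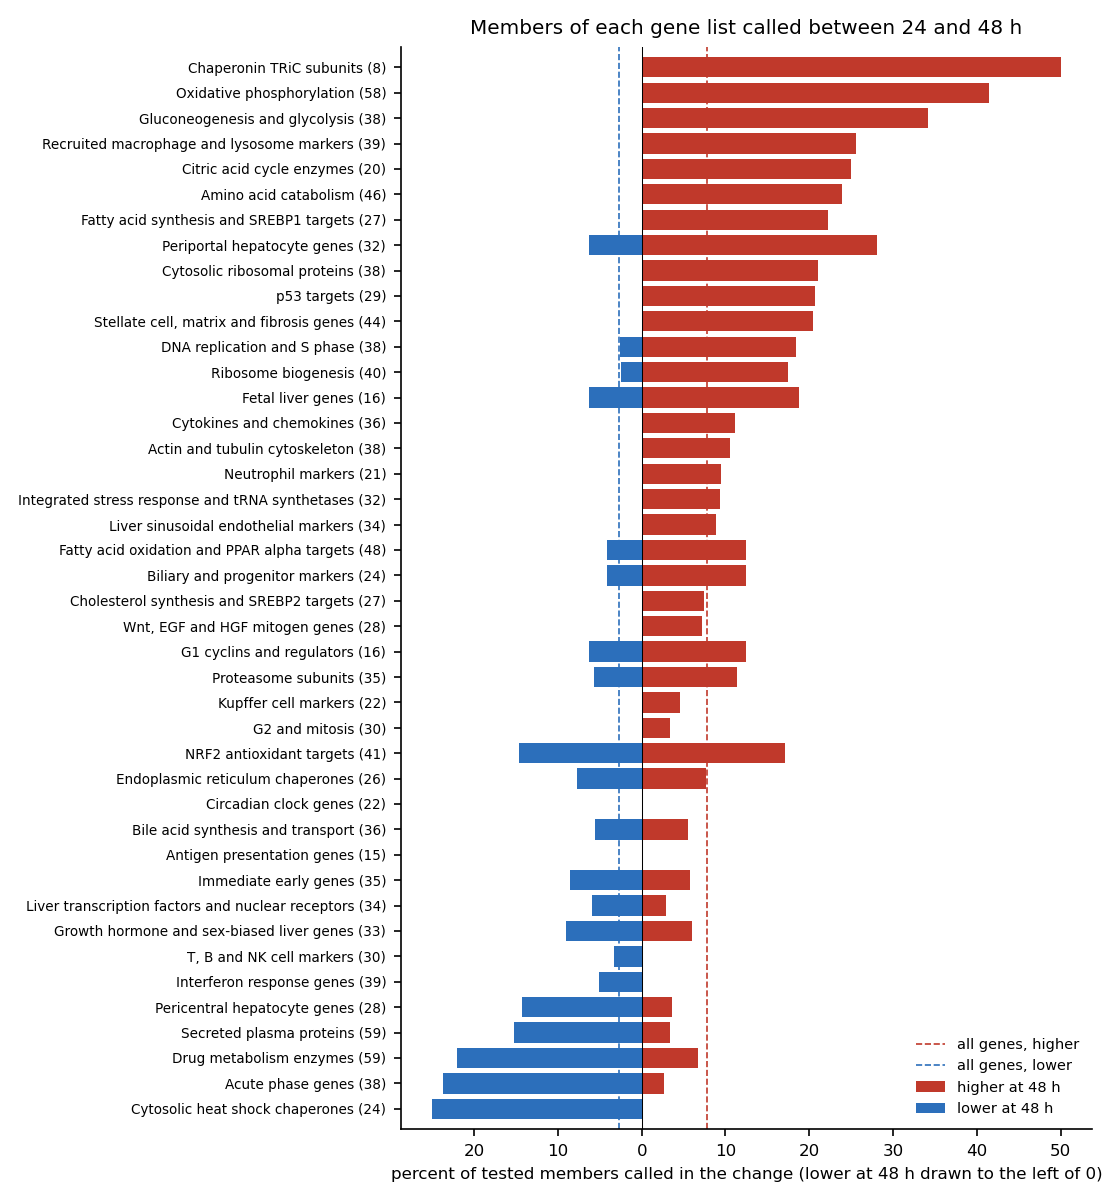
Percent of the tested members of each of 42 gene lists called higher (red, right) or lower (blue, left) at 48 h than at 24 h, with the number tested in brackets and dashed lines at the share of all genes, 7.8% and 2.66%. Chaperonin TRiC subunits, with 4 of 8, and oxidative phosphorylation, with 24 of 58, stand at the top, and heat shock chaperones, with 6 of 24 lower, at the bottom.

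Drug metabolism enzymes, which include the cytochromes that activate acetaminophen, fell in part. Of 59 tested, 13 fell and 4 rose (22% and 6.78%), and their median ratio was -2.04 at 48 h and -1.62 at 24 h. The median change of -0.39 was 0.67 under median centring and 1.39 with scaling between arrays. Cyp2c54 had ratios of -4.29 and -4.76 on the 48 h arrays and -2.19 and -2.92 on the 24 h arrays and changed by -1.98 ± 0.26, Cyp2c37 by -1.76 ± 0.27, and Cyp2c23 by -2.29 ± 0.41. With scaling between arrays Cyp2c54 stood at 1.58 and Cyp2c37 at 0.27. The genes of this family are alike in sequence, so its values are uncertain where a probe binds more than one of them. For Cyp2c23 and Cyp2c37 control livers carried the fall: Cyp2c23 was at 9.996 and 9.67 at 48 h and 9.02 and 8.16 at 24 h in treated livers and at 13.36 and 13.63 at 48 h and 9.86 and 10.06 at 24 h in control livers. The mean level was 1.24 higher at 48 h in treated livers, which was not called, and 3.54 higher in control livers (adjusted p = 0.000175). Cyp2e1, the main activator of acetaminophen, changed by -1.74 ± 0.39 on its brightest probe, where the spot of 48 h replicate 3 was left out as an outlier, so that 1 array stands for 48 h. Sult2a7, a sulfotransferase, changed by -2.96 ± 0.67 through control livers (2.79, not called), and it was well above background in 1 of the 2 treated livers at 24 h. The enzymes that rose included Aldh1a7 at 1.40 ± 0.19, carried by treated livers, Cyp2d9 at 1.45 ± 0.17, carried by control livers, and Fmo5 at 1.29 ± 0.32, whose 3 probes ranged from -0.26 to 1.29. Both channels carried Cyp2c54, Cyp2e1 and Fmo5. Without 48 h replicate 3 the list had 4 falls, and without 24 h replicate 1 it had 5. Cyp2c37 and Cyp2e1 lost their call without 48 h replicate 3, Cyp2c23 without 48 h replicate 3 or 24 h replicate 1, Fmo5 without 48 h replicate 1, 48 h replicate 3 or 24 h replicate 1, and Sult2a7 without 48 h replicate 3, 24 h replicate 1 or 24 h replicate 3.

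Of 28 genes of pericentral hepatocytes, the cells that acetaminophen kills first, 4 fell and 1 rose (14.3% and 3.57%). The list had 1 fall without 48 h replicate 3, 2 without 24 h replicate 1, and 0 rises without either replicate 3. Their median ratio was -1.28 at 48 h and -0.87 at 24 h, and the median change of -0.50 was 0.19 under median centring and 0.35 with scaling between arrays. Fewer cells of a type and less RNA per cell cannot be told apart in whole liver. Lhpp, a phosphatase, changed by -2.29 ± 0.26 with ratios of -3.58 and -3.91 on the 48 h arrays and -1.11 and -1.80 on the 24 h arrays, its other probe by -0.55, and Tbx3, a transcription factor of Wnt-active hepatocytes, by -1.78 ± 0.35, or by 0.07 with scaling between arrays. Cldn2, a tight junction claudin, went the other way at 1.79 ± 0.28, carried by treated livers, its other probe at 0.24. Of 36 genes of bile acid synthesis and transport 2 rose and 2 fell (5.56% each), Abcg2 at 1.25 ± 0.21 and Acox2 at 1.40 ± 0.25 against Slc27a5 at -1.48 ± 0.27 and the bile salt export pump Abcb11 at -1.03 ± 0.25. The median change of the list, -0.05, was 0.80 under median centring and 0.87 with scaling between arrays. Under median centring Slc27a5 stood at 0.17 and Abcb11 at 0.33, and with scaling between arrays at 0.49 and 2.07. Both channels carried Lhpp and Slc27a5, treated livers Tbx3, Abcg2 and Abcb11, and control livers Acox2. Tbx3 lost its call without each of the 4 arrays in turn, Cldn2 without 48 h replicate 3 or 24 h replicate 3, Abcg2 without 24 h replicate 3, Acox2 without 48 h replicate 3, Slc27a5 without 24 h replicate 1 or 24 h replicate 3, and Abcb11 without 48 h replicate 3, 24 h replicate 1 or 24 h replicate 3.

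**Figure D5:**
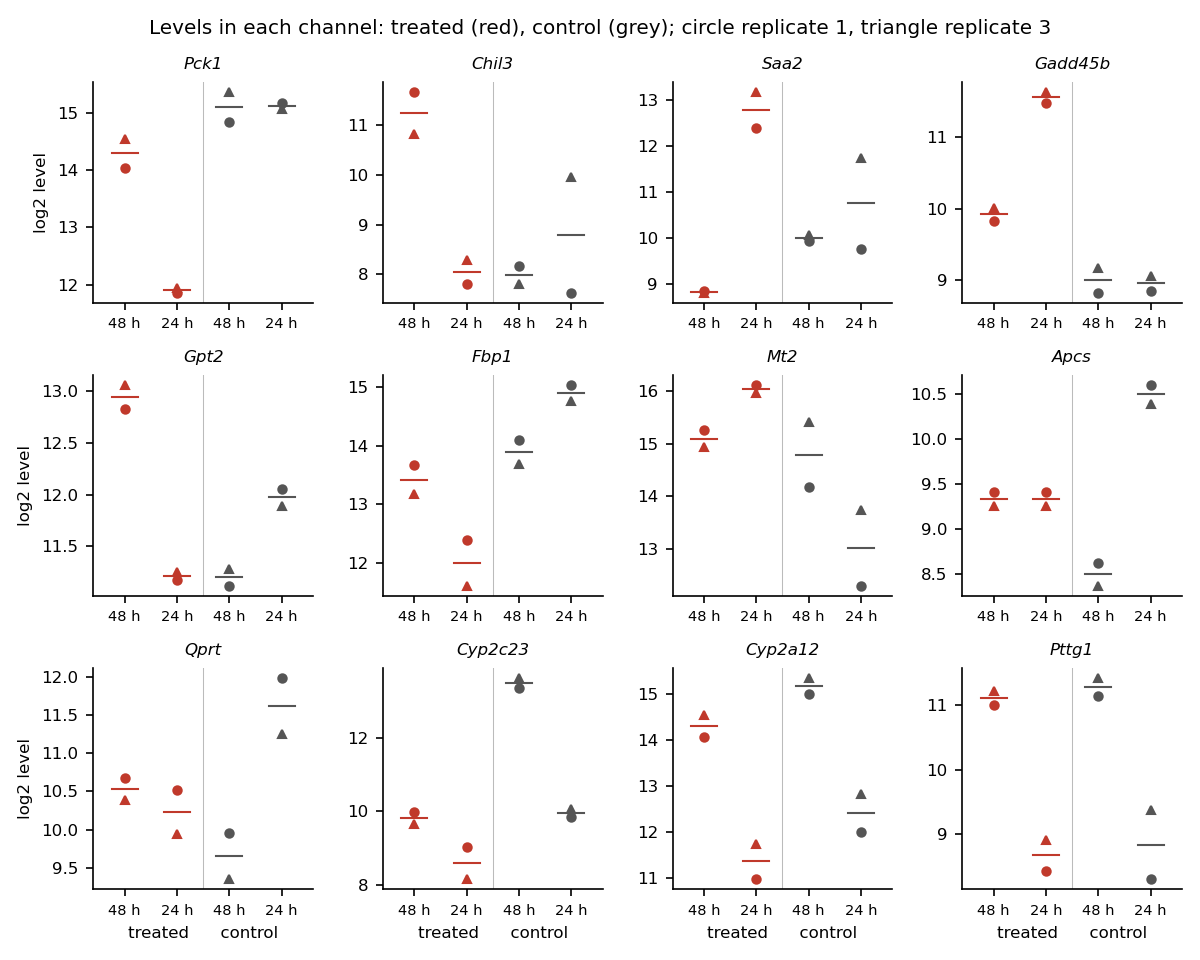
Log2 level after normalization in treated (red) and control (grey) livers at 48 h, left, and 24 h, right, within each kind of liver, with circles for replicate 1, triangles for replicate 3 and bars for the mean, for 12 genes. Pck1, Chil3, Saa2 and Gadd45b differ between the times mainly in treated livers, Apcs, Qprt and Cyp2c23 mainly in control livers, Gpt2, Fbp1 and Mt2 in opposite directions in both, and Cyp2a12 and Pttg1 by the same amount in both.

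The machinery of protein synthesis and folding rose in part. Of 38 cytosolic ribosomal protein genes 8 rose and 0 fell (21.1%), 7 of them carried by both channels, and the median change of 0.46 was -0.52 with scaling between arrays. Rps19 had ratios of 1.70 and 2.26 on the 48 h arrays and 0.46 and 0.15 on the 24 h arrays and changed by 1.68 ± 0.23, Rpl5 by 1.73 ± 0.36 and Rps4x by 1.20 ± 0.15, or by -0.08 with scaling between arrays. Ribosomal protein genes have many processed copies in the genome, and their probes may also bind these. Of 40 ribosome biogenesis genes 7 rose and 1 fell (17.5% and 2.50%), with a median change of 0.30 that was -0.06 with scaling between arrays. Nop10 changed by 1.14 ± 0.15, Polr1c by 0.99 ± 0.20 and Bop1 by 0.87 ± 0.16. Nop56, which was at 1.44 at 24 h, changed by -0.71 ± 0.18, or by 0.43 under median centring. Of the 8 subunits of TRiC, the chaperonin that folds actin and tubulin, 4 rose and 0 fell, and the median change of 1.05 kept its sign under every alternative tried. Cct3 changed by 1.17 ± 0.26, Cct7 by 1.04 ± 0.19 and Cct4 by 0.99 ± 0.19, each carried by both. All 8 were called above control at 48 h, against 1 at 24 h.

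Without 48 h replicate 3 or either 24 h array, 0 of the TRiC subunits passed, and without 48 h replicate 1, 7 did. The ribosomal protein list had 2 rises without 48 h replicate 3 and 3 without 24 h replicate 3. The biogenesis list had 1 without 48 h replicate 3 or 24 h replicate 1 and 2 without 24 h replicate 3. Both channels carried Rps19, Rpl5, Rps4x, Polr1c and Bop1 and treated livers Nop10 and Nop56. Rpl5 lost its call without 48 h replicate 3 or 24 h replicate 1, Polr1c, Bop1, Cct3, Cct7 and Cct4 without 48 h replicate 3, 24 h replicate 1 or 24 h replicate 3, and Nop56 without each of the 4 arrays in turn.

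Of 35 proteasome subunits 4 rose and 2 fell (11.4% and 5.71%), and the median change of 0.05 was 1.29 under median centring and -0.89 with scaling. Psmb7 changed by 1.51 ± 0.16, Psmd8 by 1.43 ± 0.26 and Psmd13 by 1.31 ± 0.22, while Psmd4 and Psma4, both above control at 24 h, changed by -1.10 ± 0.23 and -0.64 ± 0.16. A second Psma4 probe changed by 0.15, and under median centring Psmd4 stood at 0.46 and Psma4 at 0.71. Of 26 endoplasmic reticulum chaperones 2 rose and 2 fell (7.69% each). The disulfide isomerase gene P4hb changed by 1.58 ± 0.18 and Selenos by 1.38 ± 0.31, while Creld2 changed by -1.63 ± 0.25 and the ubiquitin ligase gene Syvn1 by -1.39 ± 0.30. Of 32 genes of the integrated stress response and tRNA charging 3 rose and 0 fell (9.38%), the synthetase genes Iars at 1.38 ± 0.29, Gars at 0.97 ± 0.20 and Nars at 0.76 ± 0.17. Their median change of -0.05 was 0.76 under median centring. Treated livers carried Psmd4, Psma4, Creld2, Syvn1, Gars and Nars, control livers Psmd13 and Selenos, and both channels Psmb7, Psmd8, P4hb and Iars. The proteasome list had 9 rises without 48 h replicate 1 and 1 without either replicate 3. Iars and Selenos lost their call without each of the 4 arrays in turn, Psmd8 and Nars without 48 h replicate 3, 24 h replicate 1 or 24 h replicate 3, Gars and Psmd4 without 48 h replicate 1, 48 h replicate 3 or 24 h replicate 1, Psma4 without 48 h replicate 1, 24 h replicate 1 or 24 h replicate 3, Syvn1 without 48 h replicate 1, 48 h replicate 3 or 24 h replicate 3, and Psmd13 and Creld2 without 48 h replicate 3 or 24 h replicate 3.

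Genes of stress signalling divided. Of 41 targets of NRF2, the regulator of antioxidant defence, 7 rose and 6 fell (17.1% and 14.6%), the falls including Mt1 and Mt2, and the median change of -0.13 was 1.05 under median centring. Akr1b8, an aldo-keto reductase, changed by 1.42 ± 0.16, or by -0.06 with scaling between arrays, with ratios of 2.003 and 2.01 on the 48 h arrays and 0.74 and 0.43 on the 24 h arrays, Cbr1 by 1.37 ± 0.31 and the glutathione transferase gene Gstp1 by 1.35 ± 0.29, which control livers carried (-1.31). Ugdh, which makes the sugar donor for glucuronidation, changed by -1.55 ± 0.31. Of 35 immediate early genes 2 rose and 3 fell (5.71% and 8.57%), the falls all carried by treated livers. Gadd45b had ratios of 1.003 and 0.84 on the 48 h arrays and 2.62 and 2.58 on the 24 h arrays and changed by -1.68 ± 0.17, -1.64 of it in treated livers (adjusted p = 0.0228), Jun by -1.06 ± 0.24 and Socs3, the feedback inhibitor of cytokine signalling, by -0.76 ± 0.16. Under median centring Jun stood at 0 and Socs3 at 0.13. Ccn2, a matrix-linked growth factor, rose by 1.45 ± 0.19, against -0.03 with scaling between arrays, and Ier3 by 1.41 ± 0.24. Of 29 p53 targets 6 rose and 0 fell (20.7%), among them Perp at 1.05 ± 0.14, Ei24 at 1.07 ± 0.18 and Ddit4 at 1.10 ± 0.28. Neat1, a long noncoding RNA of the nucleus, was below control at 48 h and above it at 24 h, with ratios of -0.81 and -1.14 on the 48 h arrays and 1.88 and 1.31 on the 24 h arrays and a change of -2.57 ± 0.36. Treated livers carried Jun, Socs3, Ier3 and Ddit4 and both channels Akr1b8, Cbr1, Ugdh, Ccn2, Perp, Ei24 and Neat1. The p53 list had 2 rises without either replicate 3 and 3 without 24 h replicate 1. The NRF2 list had 3 rises and 1 fall without 48 h replicate 3, 1 rise without 24 h replicate 3 and 2 falls without 24 h replicate 1. Gstp1, Jun and Ddit4 lost their call without each of the 4 arrays in turn, Cbr1 without 48 h replicate 3, 24 h replicate 1 or 24 h replicate 3, Socs3 without 48 h replicate 1, 24 h replicate 1 or 24 h replicate 3, Ier3 without 24 h replicate 3, Ugdh without 48 h replicate 3 or 24 h replicate 1, and Ei24 without 48 h replicate 3 or 24 h replicate 3.

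Of 38 S phase genes 7 rose and 1 fell (18.4% and 2.63%), with a median change of 0.28 and 20 above control at 48 h against 3 at 24 h. Gins3 changed by 1.47 ± 0.21 with ratios of 1.25 and 1.37 on the 48 h arrays and -0.26 and -0.05 on the 24 h arrays, and the helicase subunit genes Mcm6 and Mcm3 by 1.15 ± 0.28 and 1.04 ± 0.25. Among 30 genes of G2 and mitosis 1 rose and none fell (3.33%, below the 7.8% of all genes), Bub3 at 0.79 ± 0.16, and their median change of 0.02 was -0.05 on the scanner software's ratios. Of 16 G1 regulators 2 rose and 1 fell (12.5% and 6.25%): Ccnd1, cyclin D1, changed by 1.03 ± 0.21, Cks1b by 0.51 ± 0.12 and the inhibitor gene Cdkn1c by -0.79 ± 0.20. Of 28 Wnt, EGF and HGF mitogen genes 2 rose and 0 fell (7.14%), Hbegf at 0.96 ± 0.20 and Ereg at 0.53 ± 0.14. Ereg was not well above background in treated livers at 24 h or in control livers at 48 h. Its measured treated level was 1.5-fold higher at 48 h, a change not called in that channel (limma, adjusted p = 0.0827). Treated livers carried Gins3, Mcm3, Ccnd1, Cdkn1c, Hbegf and Ereg, both channels Mcm6, and control livers Bub3 and Cks1b. The S phase list had 4 rises without 48 h replicate 3 and 1 without 24 h replicate 3. Mcm3, Cdkn1c and Ereg lost their call without each of the 4 arrays in turn, Mcm6 without 48 h replicate 1, 24 h replicate 1 or 24 h replicate 3, and Bub3, Ccnd1, Cks1b and Hbegf without 48 h replicate 3, 24 h replicate 1 or 24 h replicate 3.

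Markers of recruited macrophages and lysosomes rose in part, mainly through treated livers. Of 39 tested, 10 rose and 0 fell (25.6%), 8 of the 10 carried by treated livers and 2 by both, and the median change of 0.65 was positive under every alternative tried. The median ratio was 0.62 at 48 h and -0.08 at 24 h. Lgals3, galectin 3 of phagocytes, had ratios of 2.83 and 2.48 on the 48 h arrays and 1.28 and -1.12 on the 24 h arrays and changed by 2.57 ± 0.64, with levels in treated livers of 12.96 and 11.60 at 48 h and 9.68 and 9.90 at 24 h. Its value was -0.06 with scaling between arrays. Summed levels of the 6 defining markers of recruited monocytes and macrophages were 5780 and 12700 intensity units in 48 h treated livers, and lay at 1620 and 1860 in 24 h treated livers, with 3 of the 6 called. In control livers they were 1270 and 2360 at 48 h and 1090 and 3710 at 24 h, so one 24 h control liver stood above both 24 h treated livers. Lgals3 was at 10.14 and 9.12 at 48 h and 8.40 and 11.01 at 24 h in control livers. In 24 h replicate 3 the control level of Lgals3, Chil3, Ccl2, Ccl6, Ccl7 and Esm1 exceeded that of both 24 h treated livers. The same held for named rises outside these groups, among them Afp, Apoa4, Anxa3, Anxa5 and Cd36. The part of that control liver in these changes was not tested beyond the values without that array. Of 22 Kupffer cell genes, those of the resident macrophage, 1 rose and 0 fell (4.55%), Cdh5 at 1.21 ± 0.14, which endothelium also expresses, and the median change was 0.55. All 8 defining Kupffer markers had a positive change, with a median of 1.0, and 0 were called. Their sum was 13200 to 17700 units in 48 h treated livers and 3820 to 7970 in 24 h treated livers, against 4140 to 4210 in 48 h and 3010 to 6850 in 24 h control livers. The part of these cells in the other changes was not tested. Without 48 h replicate 3 or 24 h replicate 3 the macrophage list had 6 rises. Lgals3 lost its call without 48 h replicate 1 or 48 h replicate 3.

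Among 36 genes of cytokines and chemokines 4 rose and 0 fell (11.1%), all carried by treated livers. The monocyte attractants Ccl2 and Ccl7 changed by 2.06 ± 0.30 and 1.82 ± 0.27, Ccl2 with ratios of 2.12 and 1.58 on the 48 h arrays and 0.28 and -0.70 on the 24 h arrays, and Ccl6 by 2.60 ± 0.50. Ccl7 was well above background in 1 of the 2 control livers at each time. The list's median of 0.14 was -0.01 with scaling between arrays. Of 21 neutrophil markers 2 rose and 0 fell (9.52%), Clec4d at 0.81 ± 0.17 and S100a8 at 1.61 ± 0.36, which was above control at both times, at 3.41 at 48 h and 1.81 at 24 h, and whose change control livers carried. With scaling between arrays S100a8 stood at -2.11. Ccl6 lost its call without 48 h replicate 1 or 48 h replicate 3, S100a8 without 48 h replicate 3 or 24 h replicate 3, and Clec4d without 48 h replicate 3, 24 h replicate 1 or 24 h replicate 3.

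Of 44 genes of stellate cells and matrix 9 rose and 0 fell (20.5%), 8 carried by treated livers. Col4a1, a basement membrane collagen, had ratios of 2.29 and 1.57 on the 48 h arrays and 0.37 and -0.18 on the 24 h arrays and changed by 1.84 ± 0.27, Thbs1, thrombospondin 1, by 1.53 ± 0.24 and Plaur, the urokinase receptor, by 1.51 ± 0.23. The 6 defining markers of stellate cells had a median change of 0 and none was called. Of 34 sinusoidal endothelial genes 3 rose and 0 fell (8.82%), Esm1, Cdh5 and Apln, the last at 0.74 ± 0.12. Apln was well above background in 1 of the 2 livers of each kind at 24 h. The 6 defining endothelial markers had a median change of 0.24 and none was called. Their sum was 5500 to 6300 units in 48 h and 6990 to 8250 in 24 h treated livers. In control livers it was 6320 to 7280 at 48 h and 6530 to 7780 at 24 h. Of 24 biliary and progenitor genes 3 rose and 1 fell (12.5% and 4.17%), with Anxa3 at 2.16 ± 0.26, Anxa5 at 1.69 ± 0.35 and Cd24a at 1.22 ± 0.19 carried by treated livers, and Cftr at -0.75 ± 0.18. Of 16 fetal liver genes 3 rose and 1 fell (18.8% and 6.25%): Afp, Cd24a and Gpc3, a glypican, at 0.86 ± 0.17, against Cdkn1c, with a median change of -0.01 that was 0.05 under median centring. Gpc3 was well above background in 1 of the 2 treated livers at 24 h and 1 of the 2 control livers at 48 h. Of 38 actin and tubulin genes 4 rose and 0 fell (10.5%), among them Tuba1a at 1.88 ± 0.28, Myl12a at 1.53 ± 0.31 and Stmn1 at 0.60 ± 0.14. The median of 0.35 for this list was -0.61 with scaling between arrays, and Stmn1 stood at -0.01 on the scanner software's own ratios. Treated livers carried Col4a1, Thbs1, Plaur, Apln and Stmn1 and both channels Cftr, Gpc3, Tuba1a and Myl12a. The cytoskeleton list had 2 rises without 48 h replicate 1, 1 without either replicate 3 and 10 without 24 h replicate 1. Plaur lost its call without 48 h replicate 3, Apln and Cd24a without 24 h replicate 3, Thbs1 and Gpc3 without 48 h replicate 3 or 24 h replicate 3, Stmn1 without 48 h replicate 3, 24 h replicate 1 or 24 h replicate 3, and Anxa5, Myl12a and Cftr without 48 h replicate 1, 48 h replicate 3 or 24 h replicate 3.

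In the remaining groups few genes passed. Of 39 interferon response genes 2 fell and 0 rose (5.13%), Gbp6 at -1.19 ± 0.27 and Irf1 at -0.72 ± 0.18, whose other probe was at -0.01 and which stood at 0.31 under median centring. The median of the list was -0.03, or 0.33 under median centring. Of 15 antigen presentation genes 0 passed in the ratio, while 3 were higher in the treated and 5 in the control channel at 48 h, and the median change of -0.05 was 0.50 under median centring and 0.10 with scaling between arrays. Ctss, a lysosomal protease, had the largest change of them, 1.78 ± 0.48 (adjusted p = 0.0563). Of 30 T, B and NK cell markers 1 fell, Cd4 at -1.70 ± 0.34, and its other probe changed by 0.06. Of 22 circadian clock genes 0 passed, and Noct had the largest change, 1.57 ± 0.50 (adjusted p = 0.0931). Of 34 liver transcription factors 1 rose and 2 fell (2.94% and 5.88%), Nr2f6 at 0.84 ± 0.21, Cebpe at -2.21 ± 0.56, which control livers carried and which was well above background in 1 of 2 livers of each kind at 24 h, and Foxa2, a factor of hepatocyte identity, at -0.92 ± 0.20, or 0.03 under median centring. Of 33 growth hormone dependent and sex-biased genes 2 rose and 3 fell (6.06% and 9.09%), and their median change of -0.32 was 0.66 under median centring and 0.42 with scaling between arrays. The rises were Cyp2d9 and Serpina3k, at 1.60 ± 0.38, both carried by control livers, and the falls were Cyp2a4, Socs3 and the prolactin receptor gene Prlr, at -0.80 ± 0.14, where the whole change lay in control livers (0.80). Cyp2a4, a steroid hydroxylase higher in female than in male liver, had ratios of -1.41 and -1.21 on the 48 h arrays and 1.65 and 1.39 on the 24 h arrays and changed by -2.83 ± 0.16 (adjusted p = 0.000725), carried by treated livers (-2.04). Prlr stood at 0.21 under median centring and at 0.80 with scaling between arrays. Treated livers carried Gbp6 and Cd4, control livers Nr2f6, and both channels Irf1 and Foxa2. Gbp6, Irf1, Nr2f6 and Foxa2 lost their call without each of the 4 arrays in turn, Cd4 without 48 h replicate 1, 48 h replicate 3 or 24 h replicate 1, Cebpe and Serpina3k without 48 h replicate 3, 24 h replicate 1 or 24 h replicate 3, and Prlr without 24 h replicate 3.

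Control livers differed between the times too, and some genes moved in both kinds of liver alike. Cyp2a12, a liver cytochrome, was at 14.06 and 14.54 at 48 h and 10.98 and 11.75 at 24 h in treated livers and 14.98 and 15.34 at 48 h and 12.003 and 12.83 at 24 h in control livers. The channels rose by 2.93 and 2.75, both called, while the ratio changed by 0.18 ± 0.19 (adjusted p = 0.625), so all livers at 48 h exceeded all livers at 24 h. Pttg1, securin, behaved alike, at 2.45 and 2.46, with a ratio change of 0.00. In the other direction Lce1d, a cornified envelope gene, changed by -4.25 in treated and by -2.30 in control livers, and its ratio changed by -1.95 ± 0.31, with 1 of the 2 control livers well above background at 48 h. Enho, which encodes adropin, Prxl2b and Sult3a2 changed by -1.46, -1.42 and -1.30 in treated livers, where Prxl2b was called, and by -2.33, -2.34 and -2.43 in control livers, where each was called. None of the 3 passed in the ratio. Ren2, the second mouse renin gene, was lower in control livers, at 7.34 and 8.10 at 48 h and 10.22 and 10.71 at 24 h, and its ratio changed by 1.60 ± 0.31. Gm3734 was higher by 2.32 in control livers alone, and its ratio changed by -2.24 ± 0.48, with 1 of the 2 treated livers well above background at 24 h. In all, 238 genes were called in the treated channel and 193 in the control channel without a called change of the ratio. Lce1d lost its call without 24 h replicate 3, Ren2 without 48 h replicate 1 or 48 h replicate 3, and Gm3734 without each of the 4 arrays in turn.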

How the data were processed

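Per the labels' protocols, liver RNA was labelled with Cy3 (control) and Cy5 (treated) and hybridised to 2-colour Agilent arrays. Per the file headers, Agilent Feature Extraction 10.7.3.1 read the scans on a design built on mm9. The deposited intensity columns are unscaled spot brightness and local background, and the deposited LogRatio column is the software's log10 ratio of Cy5 over Cy3. The series' deposited value table is a score without a stated scale, with 1.44 times the spread of the log2 ratio per array and a median of 0. What the authors did to make it, centring included, is not given in the sources used here, and the table served as an alternative only.

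From the intensities, limma 3.58.1 in R 4.3.3 corrected background (normexp, offset 50) and normalised each array by loess, with control and outlier spots at weight 0. Spots of a probe were averaged, outlier spots were left out, and a probe was kept when, at 1 time point or more, both arrays had it well above background in the same channel. Of 39429 probes 29617 were kept, and the brightest per gene stood for 23998 genes, of which 17624 had a symbol in RefSeq. Other names are those of the array files. Log2 ratios of all 10 arrays were fitted with 1 coefficient per time (5 residual degrees of freedom), so that all times share 1 estimate of the spread, and 48 h minus 24 h was tested with Benjamini-Hochberg adjustment at 0.05. Channel levels were set to a common distribution with Aquantile and tested in the same way. On simulated ratios of 23998 genes for this comparison, 76% of changes of 1 log2 unit and 99% of 2 log2 units were recovered, with 7 false calls. The simulated ratios need not hold the slide and intensity differences of these arrays, so these values describe the simulation only. The number of arrays limits the precision.

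Named genes are the 10 largest rises and falls called and alike on both scan days, the 5 largest called each way per channel, the 5 largest each way with opposite calls at 48 and 24 h, and up to 3 called members a direction per list, or the largest change where none was called. Some genes this rule selects are not reported here and not counted as named. The 42 lists, the 13 marker lists and the comparison itself were chosen with earlier results of these data known. Alternatives covered background, scaling, filter, probe choice, arrays fitted, scan day and slide, the slide being chosen after seeing the data.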

Additional observations from a re-analysis of the deposited data

Results flagged for a closer look

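The 10 genes below were called on opposite sides of control at 48 and 24 h, and the difference between the times was itself called (limma, adjusted p as given). The side of control at each time can hold a dye effect, while the difference does not hold a constant one. Below control at 48 h and above it at 24 h were Saa2, with a change of -3.20 (adjusted p = 0.00686), Cyp2a4 with -2.83 (0.000725), Neat1 with -2.57 (0.00726), Orm3 with -2.22 (0.0105) and Saa1 with -2.06 (0.00472). Above control at 48 h and below it at 24 h were Fabp5l2 with 3.48 (0.00591), Fabp5 with 3.11 (0.00739), Csad with 2.68 (0.00493), Gpt2 with 2.50 (0.000715) and Qprt with 2.27 (0.00222). Saa1 with Saa2 and Fabp5 with Fabp5l2 may share RNA on their probes. Each of the 10 kept its direction under each scaling alternative, and none was called with scaling between arrays or with the slide as a block. Under median centring 4 of the 5 falls lost their call, Cyp2a4 at -1.12, Neat1 at -1.05, Orm3 at -1.16 and Saa1 at -1.0, while Saa2 at -2.15 and the 5 rises kept theirs.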

How the results depend on the processing

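All 2510 changes kept their direction with normexp without an offset (1552 calls), no background correction and the slide block (0 calls). The 4 arrays fitted alone (244 calls) and the scan day block give the same change for a gene with a value on every array. Its direction could not turn there, so those settings do not test it. With median centring 2232 kept it (522 calls), with scaling between arrays 2330 (3 calls) and with the software's log ratio or the deposited values 2507 (1282 calls each). Leaving out 1 array gave 937 to 3333 calls. At 48 h, where 7538 genes passed, 2900 did with median centring, 700 with scaling, 4886 on the 4 arrays, 4450 with the slide block and 3406 to 7358 without single arrays. At 24 h, where 2610 passed, 4874 did without background correction, 757 with median centring, 341 with scaling, 4217 with the software's ratio or the value table, 1196 on the 4 arrays, 1569 with the slide block and 1363 to 2729 without single arrays. The treated channel, with 672, had 253 without an offset, 0 on the 4 arrays (2758 at an unadjusted p under 0.05, limma), 119 with the slide block and 173 to 731 without single arrays. The control channel, with 317, had 136 without an offset, 56 with median centring, 206 with quantile scaling, 6 on the 4 arrays, 128 with the slide block and 51 to 324 without single arrays.

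The replicate numbers coincide with the scan days. Same-numbered arrays deviated together at a correlation of 0.29 for ratios, 0.38 for the treated and 0.47 for the control channel over 2 pairs. With the replicate number as a block, 2477 genes passed in the change, 1045 in the treated and 548 in the control channel, 2692 at 24 h and 7788 at 48 h.

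Signs turned with median centring for Nop56 (0.43), Psmd4 (0.46), Psma4 (0.71), Socs3 (0.13), Cyp2f2 (0.16), Otc (0.07), Creb3l3 (0.61), Slc27a5 (0.17), Abcb11 (0.33), Ahsg (0.03), Fetub (0.13), Gc (0.53), Irf1 (0.31), Prlr (0.21) and Foxa2 (0.03), and Jun stood at 0. They turned with scaling for Lgals3 (-0.06), Rps4x (-0.08), Akr1b8 (-0.06), Ccn2 (-0.03), Cyp2c54 (1.58), Cyp2c37 (0.27), Tbx3 (0.07), Cyp2f2 (1.39), Otc (2.80), Slc27a5 (0.49), Abcb11 (2.07), S100a8 (-2.11) and Prlr (0.80), and with the software's ratio and the value table for Stmn1 (-0.01). List medians that turned with these settings are given with the lists, except those of the neutrophil list (-0.06 with scaling against 0.13) and of the immediate early list (0.09, against -0.05 with scaling, -0.28 with the software's ratio and -0.09 without background correction). The bile acid list also turned without background correction (0.11). The cause of these turns was not tested. For 21 called genes a channel was not well above background on either array of one time.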
